A study of Mus musculus with 6 samples.

Results

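The genes described here are the enzymes, transporters and regulators of glycolysis together with genes that mark the response of a cell to low oxygen. They were chosen by symbol, as a list of 39 names, and 38 of the 23951 genes in the expression table carry one of these names. The name that gave no row of its own, Pkm2, is an older symbol of Pkm, so that no gene of the list was missing. Of the 38 genes, 36 reached 1 FPKM in at least 2 libraries and were tested among 11379 genes, whereas Egln3 and Car12 stayed below this level in every library.

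Glycolysis breaks glucose down to pyruvate in the cytosol, and tumor cells often turn much of this pyruvate into lactate, which monocarboxylate transporters carry out of the cell. The same enzymes belong to the classical targets of hypoxia-inducible factor (HIF), a transcription factor whose alpha subunit is marked for destruction by prolyl hydroxylases as long as oxygen is present. Since this control acts on the HIF protein, the mRNA of Hif1a does not by itself show how active the factor is.

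RNA was measured in 3 cultured mouse melanoma lines, with 2 libraries per line. B16-F1 is a line of low metastatic potential obtained from a culture collection. B16-F1R2 was established from a lymph node metastasis, and B16-F1R2L from a metastasis in the lung that had itself come from a lymph node metastasis, and both were provided by another laboratory. None of the cells was treated, and all were kept in the same high glucose medium with serum. Oxygen was not varied on purpose, and its level at the cells is not given in the sources used here. Each line is represented by 1 culture stock whose clonality is not given in the sources used here, so the metastatic origin, the provider and the history of a line cannot be told apart. The sources used here do not tell how the 2 libraries of a line relate to cultures, and the p-values therefore measure the spread between these libraries, which may be technical.

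Expression was given by the authors as FPKM, the fragments per kilobase of transcript and per 1000000 mapped reads, a unit that takes transcript length into account and lets the levels of different genes be set side by side. The FPKM of a library summed to between 596657 and 672794, and the depth, judged from the smallest values of single-transcript genes, was estimated at 13000000 to 15000000 reads per library. This estimate is rough, since the most frequent range held 19 to 24 of the 304 to 331 low values of a library. The scaling of the FPKM is not given, so the estimate may reflect a common scale and not the depth of each library. Between 10617 and 11168 genes reached 1 FPKM. The 11 melanocyte markers were all present, with a summed level of 17568 and 17602 FPKM in B16-F1, 9858 and 9656 in B16-F1R2, against 10785 and 10795 in B16-F1R2L. Of the other cell types, 4 of 10 fibroblast markers reached 1 FPKM (summed level 1.88 to 1.95 in B16-F1, 23.4 to 24.1 in B16-F1R2 and 10.8 to 12.0 in B16-F1R2L), as did, with sums in the same order of lines, 2 of 12 macrophage markers (1.53 to 2.73, 1.94 to 3.18 and 3.31 to 4.35), 3 of 10 endothelial markers (2.28 to 2.32, 2.97 to 3.40 and 4.77 to 5.35), 1 of 11 lymphocyte markers (0.081 to 0.090, 12.8 to 13.1 and 16.2 to 17.6) and 0 of 9 epithelial markers. Ptprc and Cd3e, which define leukocytes and T cells, were listed at 0 in all libraries, and Epcam did not exceed 0.045 FPKM. Pecam1, which defines endothelial cells, was listed at 0 in both B16-F1 libraries and measured 0.758 and 0.752 FPKM in B16-F1R2, against 1.09 and 1.26 in B16-F1R2L. Of the other endothelial markers that reached 1 FPKM, Vwf was also higher in both metastatic lines, whereas Prox1 was lower. Prox1 measured 1.66 and 1.63 FPKM in B16-F1, 0.790 and 0.969 in B16-F1R2, against 1.16 and 1.12 in B16-F1R2L. The lymphocyte sum was nearly all Cd79a, of the B cell receptor, with 0 and 0.059 FPKM in B16-F1, 12.7 and 12.4 in B16-F1R2, against 17.1 and 15.9 in B16-F1R2L. The fibroblast, endothelial and lymphocyte sums were thus higher in both metastatic lines without overlap with B16-F1. The part of these markers in the results below was not tested.

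In B16-F1R2, most genes of glycolysis and of the hypoxia response were expressed at a higher level than in B16-F1. Using limma on log2(FPKM + 0.1) with all 6 libraries in 1 fit, 27 of the 36 tested genes were higher (75.0%) and 4 were lower (11.1%) at a Benjamini-Hochberg adjusted p below 0.05, where 28.2% of all tested genes were higher and 27.2% lower. The median log2 difference of the 36 genes was 0.59, against 0.0046 over all tested genes. The genes that were lower were Aldoc, Slc16a3, Pfkfb4 and Ndrg1, and those that did not pass the test were Gapdh, Ldhb, Hif1a, Egln1 and Car9. With a log2 difference of at least 1 as an added condition, 7 of the 36 genes were higher (Pfkl, Ldha, Pdk1, Bnip3, P4ha2, Ankrd37 and Adm), against 7.20% of all tested genes, and 2 were lower (Aldoc and Slc16a3), against 2.88%. With a pseudocount of 1 in place of 0.1, P4ha2 (0.95) and Ankrd37 (0.95) lay just under this limit, as did P4ha2 after quantile normalization and without B16-F1 replicate 2 or B16-F1R2 replicate 1 (0.90 at the lowest). Both libraries of B16-F1R2 lay above both of B16-F1 for 29 of the 36 genes and below both for 4, where 40.3% of all tested genes lay above and 39.7% below in the same way. Because a library pools many cells, more cells with a transcript and more transcript per cell cannot be told apart.

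B16-F1R2L showed a similar number of differences from B16-F1. In this comparison 29 of the 36 genes were higher and 3 were lower (Aldoc, Slc16a3 and Ldhb), where 29.5% of all tested genes were higher and 27.1% lower, and the median log2 difference was 0.62 against 0.017 over all tested genes. With a log2 difference of at least 1 as well, 8 genes were higher and 1 lower, against 8.41% and 2.28% of all tested genes. Over the alternatives, Ankrd37 and Bnip3l also fell under this limit (0.96 and 0.98 at the lowest), and Hk1, Ldha and Slc2a3 also lay above it (1.08, 1.08 and 1.07 at the highest). Both comparisons use the same B16-F1 libraries, so their counts are not independent. The metastatic lines differed less from each other. In B16-F1R2L against B16-F1R2, 8 of the 36 genes were higher (Aldoc, Ndrg1, Hif1a, Egln1, Pdk1, Bnip3, Bnip3l and Vegfa), 3 were lower (Ldhb, Pgam1 and Eno1) and 25 did not pass the test, where 12.1% of all tested genes were higher and 10.5% lower. At a pseudocount of 0.1, Vegfa alone was higher by at least 1 on the log2 scale and none was lower by as much, against 1.02% and 0.211% of all tested genes. This limit did not separate the genes firmly, since over the alternatives the log2 difference ran from 0.89 to 1.13 for Vegfa, 0.77 to 1.22 for Aldoc and 0.87 to 1.08 for Ndrg1, and a pseudocount of 1 left Vegfa at 0.95. Rescaling each library to the same FPKM sum moved the median log2 difference of all genes from 0.022 to 0.13 in this last comparison and from 0.017 to 0.12 in B16-F1R2L against B16-F1. The 3 lower calls were then lost and 11 genes were higher, while all tested genes split into 2079 higher and 489 lower in place of 1378 and 1190. For B16-F1R2L against B16-F1, the same rescaling gave 30 of the 36 genes higher and 3 lower, and 4075 of all tested genes higher and 2043 lower in place of 3361 and 3086.

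**Figure D1:**
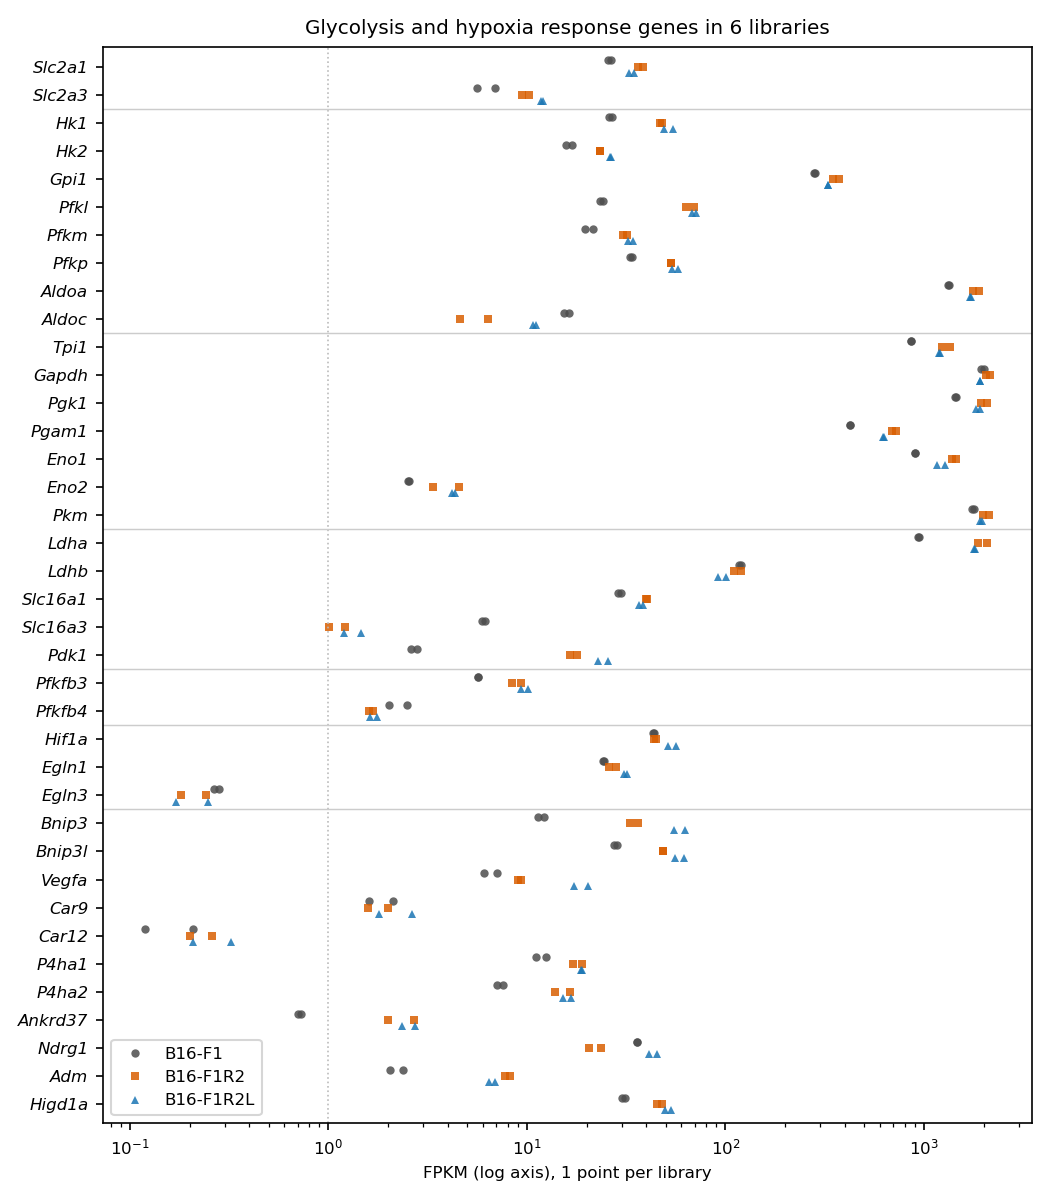
FPKM of the 38 genes on a log axis, 1 point per library, with B16-F1 as circles, B16-F1R2 as squares and B16-F1R2L as triangles; the dotted line marks 1 FPKM. Levels run from 0.119 FPKM for Car12 to 2144 FPKM for Gapdh. B16-F1 lies to the left for most genes, with Slc16a3, Aldoc, Pfkfb4 and the untested Egln3 to the right.

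**Figure D2:**
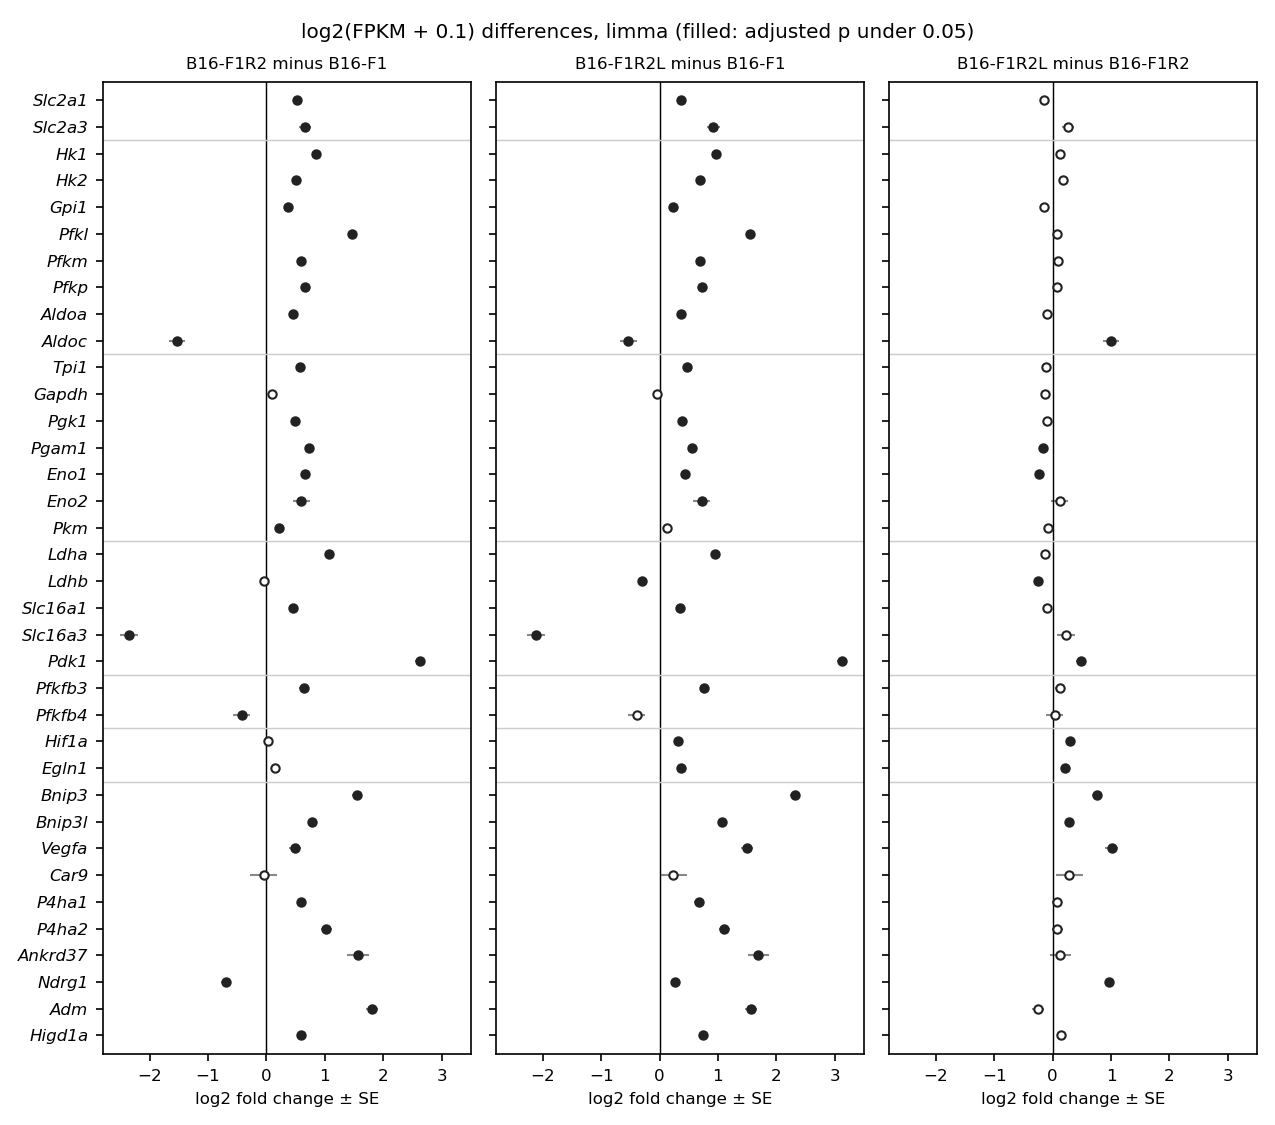
Log2 differences with their standard errors from limma for the 36 tested genes in the 3 comparisons; filled points have an adjusted p below 0.05. Most points lie above 0 in both comparisons with B16-F1, with Pdk1 highest at 2.63 and 3.12 and Slc16a3 lowest at -2.35 and -2.11, and near 0 between the metastatic lines.

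HIF binds a short element whose core reads ACGTG, and the promoters of a few genes discussed below are shown because they hold this core or because their gene moved the other way. The sequences are the 250 bases before the transcription start from RefSeq on the GRCm38.p6 assembly, which is not the assembly of the expression data. Ldha is at chr7:46845554-46845803 on the plus strand, Pgk1 at chrX:106186850-106187099 on the plus strand, Bnip3 at chr7:138909507-138909756 on the minus strand and Slc16a3 at chr11:120948817-120949066 on the plus strand. Each is written in the direction of its gene, and capitals mark ACGTG or, on the other strand, CACGT. Where both overlap they form the palindrome CACGTG, which is also the binding element of MYC and USF proteins.
Ldha: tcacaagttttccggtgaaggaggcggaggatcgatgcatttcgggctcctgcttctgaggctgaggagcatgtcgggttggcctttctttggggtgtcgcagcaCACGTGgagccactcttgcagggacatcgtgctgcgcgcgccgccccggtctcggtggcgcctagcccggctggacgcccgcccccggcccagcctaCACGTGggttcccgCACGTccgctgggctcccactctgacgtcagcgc
Pgk1: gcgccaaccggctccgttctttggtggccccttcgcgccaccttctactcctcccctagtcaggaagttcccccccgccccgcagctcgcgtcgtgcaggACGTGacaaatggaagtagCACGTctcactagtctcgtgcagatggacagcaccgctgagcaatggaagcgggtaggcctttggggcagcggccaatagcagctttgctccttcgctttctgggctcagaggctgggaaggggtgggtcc
Bnip3: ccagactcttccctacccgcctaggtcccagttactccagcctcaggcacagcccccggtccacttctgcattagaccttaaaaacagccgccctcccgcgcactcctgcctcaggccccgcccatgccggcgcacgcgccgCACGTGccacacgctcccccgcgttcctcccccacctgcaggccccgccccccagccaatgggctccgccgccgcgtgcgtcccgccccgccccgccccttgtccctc
Slc16a3: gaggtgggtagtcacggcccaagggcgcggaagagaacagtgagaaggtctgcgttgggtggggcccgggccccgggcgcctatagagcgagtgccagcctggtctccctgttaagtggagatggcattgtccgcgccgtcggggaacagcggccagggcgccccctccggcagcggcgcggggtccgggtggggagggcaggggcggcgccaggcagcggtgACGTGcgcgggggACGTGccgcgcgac
Ldha, which encodes the muscle type subunit of lactate dehydrogenase, held CACGTG at 2 places and CACGT at a position 34 bases before the start shown, while the other of the 2 Ldha starts in the table held none of these letters. Pgk1, for phosphoglycerate kinase, held matches starting 150 and 131 bases before the start, and Bnip3, for a mitochondrial protein of the autophagy machinery, held CACGTG starting 108 bases before it. Slc16a3, for the lactate exporter MCT4, held ACGTG at 2 places, starting 27 and 14 bases before its start, and its transcript was lower in both metastatic lines.

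Promoters were found in the RefSeq table for 35 of the 38 genes, and Slc2a3, Bnip3l and Ndrg1 were not matched. ACGTG was present on either strand in at least 1 promoter of 20 of these 35 genes (57.1%), against 26.0% of tested genes and 18.5% of all genes in the table. Counted by promoter, 23 of 49 (46.9%) held it, against 22.2% for the tested genes and 16.6% for all promoters. CACGTG was present in 6 of the 35 genes (17.1%) and in 10.2% of tested genes. The median GC content was 60.4% for the promoters of the list and 60.0% for those of the tested genes. Among the genes of the list that were higher in B16-F1R2, 15 of 25 had the core, and among those that were lower, 1 of 3, while over all tested genes it was present in 24.8% of those higher and 27.4% of those lower. A match describes these letters in this window and is not a measured binding site.

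Glucose enters the cell through the transporters GLUT1 and GLUT3, encoded by Slc2a1 and Slc2a3. Slc2a1 measured 25.5 and 26.5 FPKM in B16-F1, 38.5 and 36.1 in B16-F1R2, with 34.5 and 32.8 in B16-F1R2L. Slc2a3 measured 6.86 and 5.61 FPKM in B16-F1, 9.49 and 10.3 in B16-F1R2, with 11.7 and 12.0 in B16-F1R2L. For both transporters, every library of the metastatic lines lay above both B16-F1 libraries. In B16-F1R2 the log2 difference from B16-F1 was 0.52 ± 0.055 (SE; limma, adjusted p = 0.000407) for Slc2a1 and 0.66 ± 0.11 (adjusted p = 0.00228) for Slc2a3. B16-F1R2L and B16-F1R2 did not differ past the threshold for either transporter, with adjusted p of 0.0989 and 0.121.

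In the upper part of glycolysis, from hexokinase to aldolase, 7 of 8 genes were higher in each metastatic line than in B16-F1. Aldoc was lower in both. For comparison, 28.2% of all tested genes passed as higher for B16-F1R2 and 29.5% for B16-F1R2L. The shares that passed as lower were 27.2% and 27.1%. Phosphofructokinase, the enzyme of the committed step, is built from subunits of 3 genes. The liver type subunit Pfkl (chr10:77449692-77472828, minus strand of NCBIM37) measured 23.3 and 24.3 FPKM in B16-F1, 69.1 and 63.1 in B16-F1R2, against 68.0 and 71.3 in B16-F1R2L. These values correspond to log2 differences from B16-F1 of 1.47 ± 0.059 (SE; limma, adjusted p = 7.76e-06) and 1.55 ± 0.059 (adjusted p = 6.15e-06). The muscle type subunit Pfkm measured 19.6 and 21.5 FPKM in B16-F1, 31.9 and 30.6 in B16-F1R2, with 34.4 and 32.4 in B16-F1R2L. The platelet type subunit Pfkp measured 33.0 and 33.8 FPKM in B16-F1, 52.9 and 52.9 in B16-F1R2, with 53.7 and 57.7 in B16-F1R2L. All 3 subunits were above B16-F1 in every library of both metastatic lines, and the log2 differences of Pfkm and Pfkp in B16-F1R2 were 0.60 and 0.66, smaller than that of Pfkl.

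Hexokinase, which traps glucose as its phosphate, was measured as the broadly expressed Hk1 and the inducible Hk2. Hk1 measured 26.0 and 26.8 FPKM in B16-F1, 47.7 and 47.0 in B16-F1R2, against 54.6 and 49.2 in B16-F1R2L. Hk2 measured 16.8 and 15.8 FPKM in B16-F1, 23.3 and 23.3 in B16-F1R2, with 26.4 and 26.2 in B16-F1R2L. The libraries of B16-F1 were the lowest for both genes, with log2 differences in B16-F1R2 of 0.84 (limma, adjusted p = 7.63e-05) for Hk1 and 0.51 (adjusted p = 0.000347) for Hk2. Gpi1, for glucose-6-phosphate isomerase, was far more abundant, with 278 and 283 FPKM in B16-F1, 373 and 349 in B16-F1R2, with 327 and 328 in B16-F1R2L. Its log2 differences from B16-F1 were among the smaller ones, at 0.36 (limma, adjusted p = 0.000981) and 0.22 (adjusted p = 0.00741), and the latter lost its call without B16-F1 replicate 1 (adjusted p = 0.0606).

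The aldolases moved in opposite directions. Aldoa, the main aldolase of most tissues, measured 1315 and 1340 FPKM in B16-F1, 1888 and 1773 in B16-F1R2, against 1727 and 1705 in B16-F1R2L. Aldoc, known from brain (chr11:78136470-78141283, plus strand), measured 15.4 and 16.3 FPKM in B16-F1, 6.35 and 4.62 in B16-F1R2, with 10.7 and 11.2 in B16-F1R2L. Aldoa was thus higher in both metastatic lines, by 0.46 (limma, adjusted p = 0.000748) and 0.37 (adjusted p = 0.00192) on the log2 scale. Aldoc fell by 1.53 on the log2 scale in B16-F1R2 (SE 0.14; limma, adjusted p = 0.00023) and by less in B16-F1R2L, at -0.53 (adjusted p = 0.0183). The latter difference did not pass the threshold when B16-F1 replicate 2 or either B16-F1R2L library was left out, with an adjusted p of up to 0.0764. Between the metastatic lines Aldoc was higher in B16-F1R2L by 1.00 (adjusted p = 0.00867), a call that was lost without B16-F1R2L replicate 2 (adjusted p = 0.053). Since Aldoc made up 1.16% to 1.20% of aldolase FPKM in B16-F1, the summed aldolase level followed Aldoa.

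The lower part of glycolysis held the most abundant transcripts of the list. Of its 7 genes, 6 were higher in B16-F1R2 and 5 in B16-F1R2L than in B16-F1, and none was lower. Higher calls made up 28.2% of all tested genes in the first comparison and 29.5% in the second. Lower calls made up 27.2% and 27.1%. Tpi1, for triosephosphate isomerase, measured 856 and 862 FPKM in B16-F1, 1344 and 1229 in B16-F1R2, with 1203 and 1184 in B16-F1R2L. Pgk1 measured 1425 and 1445 FPKM in B16-F1, 2070 and 1942 in B16-F1R2, against 1836 and 1916 in B16-F1R2L. Pgam1, for phosphoglycerate mutase, measured 424 and 426 FPKM in B16-F1, 719 and 694 in B16-F1R2, with 623 and 632 in B16-F1R2L. For these 3 genes the FPKM of both metastatic lines lay above B16-F1. B16-F1R2 had the highest values, but its difference from B16-F1R2L did not pass for Tpi1 and Pgk1 (limma, adjusted p = 0.227 and 0.279) and turned sign after rescaling and quantile normalization. The log2 differences of B16-F1R2 from B16-F1 were 0.58 for Tpi1, 0.48 for Pgk1 and 0.73 for Pgam1 (limma, adjusted p = 0.00033, 0.000785 and 4.02e-05).

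Enolase was represented by Eno1, the form of most cells, and by Eno2, the neuronal form. Eno1 measured 898 and 904 FPKM in B16-F1, 1457 and 1382 in B16-F1R2, with 1273 and 1158 in B16-F1R2L. Eno2 measured 2.53 and 2.56 FPKM in B16-F1, 3.35 and 4.55 in B16-F1R2, against 4.20 and 4.32 in B16-F1R2L. Eno1 was higher in B16-F1R2 by 0.66 on the log2 scale (limma, adjusted p = 0.000281), while the difference of 0.60 for Eno2 (adjusted p = 0.0143) missed the threshold without B16-F1 replicate 1 and under quantile normalization, with an adjusted p of up to 0.0634. Against B16-F1R2, B16-F1R2L was lower in Pgam1 (-0.17, adjusted p = 0.0385) and in Eno1 (-0.23, adjusted p = 0.0497), and both calls were lost under most alternatives tried.

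Gapdh and Pkm, the 2 highest genes of the list in B16-F1, changed least in the lower pathway. Gapdh, for glyceraldehyde-3-phosphate dehydrogenase and often used as a reference gene, measured 1938 and 2009 FPKM in B16-F1, 2144 and 2063 in B16-F1R2, with 1922 and 1915 in B16-F1R2L. Its log2 differences were 0.09 (limma, adjusted p = 0.207) in B16-F1R2 and -0.04 (adjusted p = 0.564) in B16-F1R2L, and the latter was positive after rescaling (0.062) and quantile normalization (0.094). Pkm, for pyruvate kinase of muscle and tumor cells, measured 1754 and 1785 FPKM in B16-F1, 2134 and 1985 in B16-F1R2, with 1968 and 1906 in B16-F1R2L. It was higher in B16-F1R2 by 0.22 (adjusted p = 0.0222), a call lost without B16-F1 replicate 1, B16-F1 replicate 2 or B16-F1R2 replicate 1 and with no filter on low values (adjusted p of up to 0.146). The splice forms PKM1 and PKM2 are not separated in a value per gene.

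The 15 glycolysis enzymes together summed to 9025 and 9194 FPKM in B16-F1, 12364 and 11645 in B16-F1R2, against 11131 and 10997 in B16-F1R2L. This was 1.39% to 1.40% of all FPKM in B16-F1, 1.83% to 1.84% in B16-F1R2 and 1.80% to 1.84% in B16-F1R2L, and the mean of B16-F1R2 was 1.32 times and that of B16-F1R2L 1.21 times the mean of B16-F1. After rescaling to equal FPKM sums the ratios were 1.31 and 1.30, and without Gapdh they were 1.39 and 1.28. With 2 libraries against 2, an exact two-sided permutation test cannot go below p = 0.333, so these sums are given as a description.

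Pyruvate can be reduced to lactate or enter the mitochondria, and the genes at this branch held both the highest and the lowest difference of B16-F1R2 from B16-F1 on the list. Pdk1 (chr2:71711281-71741915, plus strand of NCBIM37) encodes a kinase that switches off pyruvate dehydrogenase. It measured 2.62 and 2.78 FPKM in B16-F1, 17.8 and 16.5 in B16-F1R2, with 22.7 and 25.7 in B16-F1R2L. The 3 lines did not overlap, and the mean was 6.37 times that of B16-F1 in B16-F1R2 and 8.98 times in B16-F1R2L. The log2 differences were 2.63 ± 0.085 (SE; limma, adjusted p = 3.33e-06) and 3.12 ± 0.085 (adjusted p = 1.88e-06). The further difference of 0.49 between the metastatic lines (adjusted p = 0.0136) was lost without either B16-F1R2 library or without B16-F1R2L replicate 2 (adjusted p of up to 0.0663).

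Lactate dehydrogenase is a tetramer of the subunits encoded by Ldha and Ldhb. Ldha (chr7:54096845-54110997, plus strand of NCBIM37) measured 928 and 940 FPKM in B16-F1, 2074 and 1880 in B16-F1R2, with 1812 and 1786 in B16-F1R2L. Ldhb measured 117 and 120 FPKM in B16-F1, 120 and 110 in B16-F1R2, against 100.1 and 91.9 in B16-F1R2L. Ldha was higher in B16-F1R2 by 1.08 ± 0.063 (SE; limma, adjusted p = 3.68e-05) and in B16-F1R2L by 0.95 (adjusted p = 5.95e-05) on the log2 scale. The B16-F1 and B16-F1R2 libraries overlapped for Ldhb (-0.05, adjusted p = 0.555), while B16-F1R2L was the lowest line, at -0.30 against B16-F1 (adjusted p = 0.00649). Ldhb thereby went from 11.2% and 11.3% of lactate dehydrogenase FPKM in B16-F1 to between 4.89% and 5.52% in the metastatic lines.

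Lactate leaves the cell through the monocarboxylate transporters MCT1 and MCT4, encoded by Slc16a1 and Slc16a3. Slc16a1 measured 29.8 and 28.8 FPKM in B16-F1, 40.4 and 39.6 in B16-F1R2, with 36.6 and 38.5 in B16-F1R2L. Slc16a3 (chr11:120809794-120822182, plus strand of NCBIM37) measured 5.94 and 6.15 FPKM in B16-F1, 1.22 and 1.01 in B16-F1R2, with 1.19 and 1.46 in B16-F1R2L. Slc16a1 was higher in both metastatic lines (0.45 and 0.36; limma, adjusted p = 0.00041 and 0.00107). Slc16a3, a known HIF target, was lower in both, with log2 differences of -2.35 ± 0.15 (SE; adjusted p = 5.59e-05) and -2.11 ± 0.15 (adjusted p = 8.45e-05), and fell from 16.6% and 17.6% of the summed FPKM of both transporters in B16-F1 to between 2.48% and 3.66% in the metastatic lines.

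**Figure D3:**
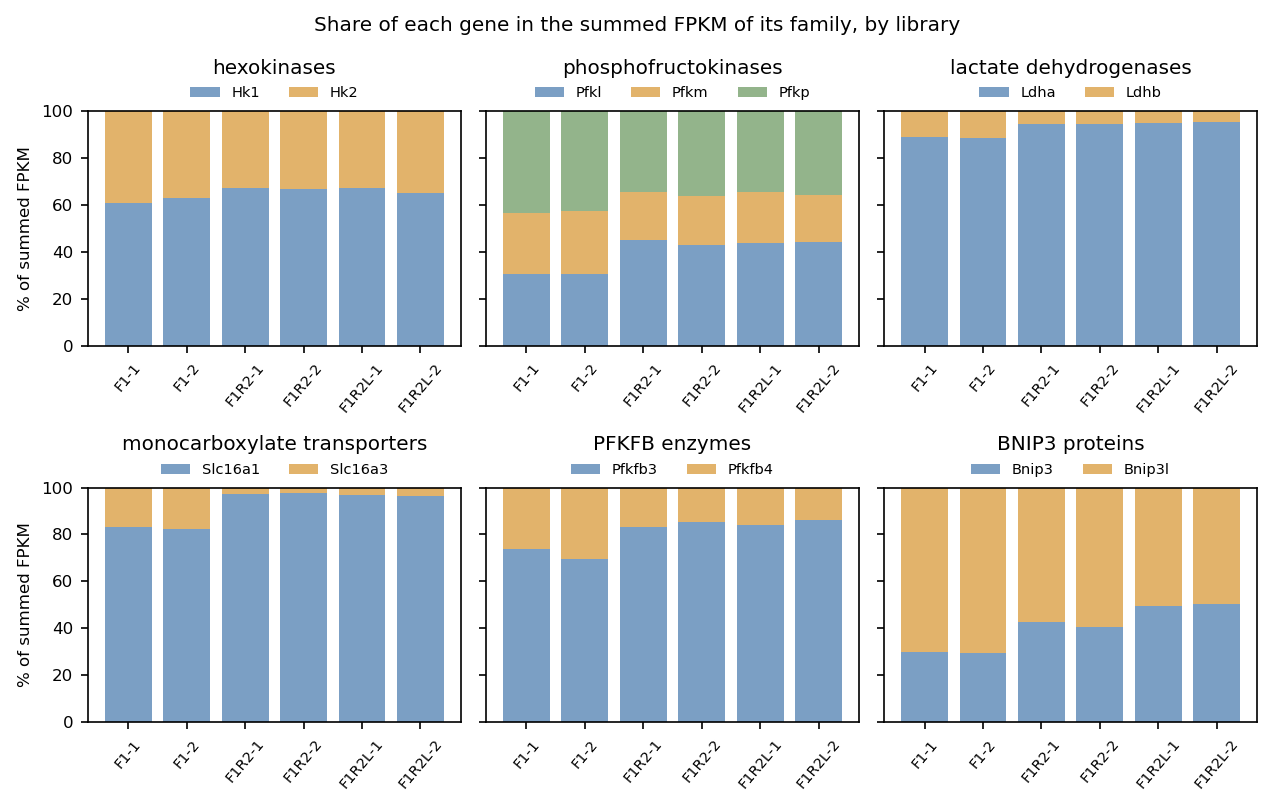
Share of each gene, in percent, in the summed FPKM of its family, with 1 bar per library and families of 2 or 3 genes. Pfkl took 30.5% to 30.6% of phosphofructokinase FPKM in B16-F1 and 43.0% to 44.9% in the other lines, while the shares of Ldhb, Slc16a3 and Pfkfb4 were smaller in every library of the metastatic lines.

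Across the families the shares of the single genes moved together with these values. The summed phosphofructokinase level was 75.9 and 79.6 FPKM in B16-F1 and between 147 and 161 FPKM in the metastatic lines, and the largest share passed from Pfkp (42.5% to 43.5% in B16-F1, 34.4% to 36.1% in the other lines) to Pfkl. Hk1 made up 60.6% to 62.9% of hexokinase FPKM in B16-F1 and 65.3% to 67.4% in the other lines. For the glucose transporters the shares overlapped between B16-F1 and B16-F1R2, where Slc2a3 took 17.5% to 21.2% and 19.8% to 22.2%, and were larger in B16-F1R2L, at 25.3% to 26.8%.

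The bifunctional enzymes that set the level of fructose-2,6-bisphosphate, the activator of phosphofructokinase, were represented by Pfkfb3 and Pfkfb4. Pfkfb3, the form with the strongest kinase activity, measured 5.64 and 5.66 FPKM in B16-F1, 8.39 and 9.34 in B16-F1R2, against 9.31 and 10.1 in B16-F1R2L. Pfkfb4 measured 2.02 and 2.47 FPKM in B16-F1, 1.68 and 1.60 in B16-F1R2, with 1.75 and 1.62 in B16-F1R2L. Pfkfb3 was higher in both metastatic lines, by 0.64 (limma, adjusted p = 0.000957) and 0.77 (adjusted p = 0.000432). Pfkfb4 lay below B16-F1 in every library of the metastatic lines, but the difference of -0.43 in B16-F1R2 was close to the threshold (adjusted p = 0.0463) and lost its call under 9 of the 15 alternatives in which it was tested at the same threshold, with an adjusted p of up to 0.244. In B16-F1R2L it was -0.39 (adjusted p = 0.0607).

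Hif1a, the oxygen-regulated subunit of HIF-1, did not differ between B16-F1 and B16-F1R2 past the threshold. It measured 43.7 and 43.1 FPKM in B16-F1, 43.5 and 44.5 in B16-F1R2, with 51.6 and 56.2 in B16-F1R2L. The log2 difference was 0.02 ± 0.053 (SE; limma, adjusted p = 0.777) in B16-F1R2 and 0.31 (adjusted p = 0.00312) in B16-F1R2L. Egln1, for the main prolyl hydroxylase that marks HIF alpha subunits, measured 24.6 and 24.2 FPKM in B16-F1, 28.0 and 26.0 in B16-F1R2, against 32.1 and 30.8 in B16-F1R2L. It was higher in B16-F1R2L by 0.37 (adjusted p = 0.0017), while the difference of 0.15 in B16-F1R2 (adjusted p = 0.0561) did not pass. Egln3, a hydroxylase that HIF itself induces in many cells, stayed between 0.170 and 0.282 FPKM throughout and was therefore left untested. The differences of Hif1a and Egln1 between the metastatic lines, 0.29 and 0.22 (adjusted p = 0.0156 and 0.0353), were lost when either B16-F1R2 library or B16-F1R2L replicate 2 was left out, that of Egln1 also under most other alternatives, with adjusted p of up to 0.0833 and 0.128.

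Of the 10 tested genes known as targets of the hypoxia response, 8 were higher than in B16-F1 and 1 was lower for B16-F1R2, and 9 were higher and none lower in B16-F1R2L. Over all tested genes, 28.2% were higher and 27.2% lower in the first comparison, and 29.5% and 27.1% in the second. Bnip3 (chr7:146082519-146101202, minus strand of NCBIM37) and Bnip3l encode related receptors for the removal of mitochondria by autophagy. Bnip3 measured 12.1 and 11.4 FPKM in B16-F1, 36.4 and 33.1 in B16-F1R2, with 54.8 and 62.9 in B16-F1R2L. Bnip3l measured 28.6 and 27.4 FPKM in B16-F1, 48.5 and 48.3 in B16-F1R2, with 55.4 and 62.0 in B16-F1R2L. Both increased from B16-F1 over B16-F1R2 to B16-F1R2L with no overlap between lines. For Bnip3 the log2 differences were 1.56 ± 0.083 (SE; limma, adjusted p = 2.59e-05) and 2.31 (adjusted p = 5.15e-06) against B16-F1, and 0.76 (adjusted p = 0.00458) between the metastatic lines. For Bnip3l they were 0.79, 1.06 and 0.28 (adjusted p = 0.000119, 3.54e-05 and 0.0272), the last being lost without either B16-F1R2 library or B16-F1R2L replicate 2, with no filter on low values and with eBayes without a trend (adjusted p of up to 0.109). Bnip3 made up 29.3% to 29.8% of the FPKM of both genes in B16-F1, 40.7% to 42.9% in B16-F1R2 and 49.7% to 50.3% in B16-F1R2L.

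Vegfa and Ndrg1 separated the metastatic lines. Vegfa, the growth factor of blood vessels (chr17:46153942-46169326, minus strand), measured 7.05 and 6.05 FPKM in B16-F1, 9.06 and 9.35 in B16-F1R2, against 17.2 and 20.3 in B16-F1R2L. The difference from B16-F1 was 0.49 ± 0.11 (SE; limma, adjusted p = 0.00892) in B16-F1R2 and 1.50 ± 0.11 (adjusted p = 7.92e-05) in B16-F1R2L, and that between the metastatic lines was 1.01 ± 0.11 (adjusted p = 0.00421). Ndrg1, a stress-responsive gene induced by hypoxia (chr15:66760883-66801202, minus strand), measured 35.8 and 35.6 FPKM in B16-F1, 23.6 and 20.4 in B16-F1R2, with 41.3 and 45.0 in B16-F1R2L. It was the lowest in B16-F1R2, at -0.70 ± 0.079 (SE; adjusted p = 0.000548) from B16-F1, and highest in B16-F1R2L, at 0.27 (adjusted p = 0.0257). The latter call was lost without B16-F1R2L replicate 2, without either B16-F1 library and without the trend of the variance (adjusted p of up to 0.122), whereas the difference of 0.97 between the metastatic lines (adjusted p = 0.00204) kept its call under the 16 alternatives that ask for no minimum difference. The same was found for the differences of Vegfa and Bnip3 between these lines, and for none of the other 8 calls in that comparison.

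**Figure D4:**
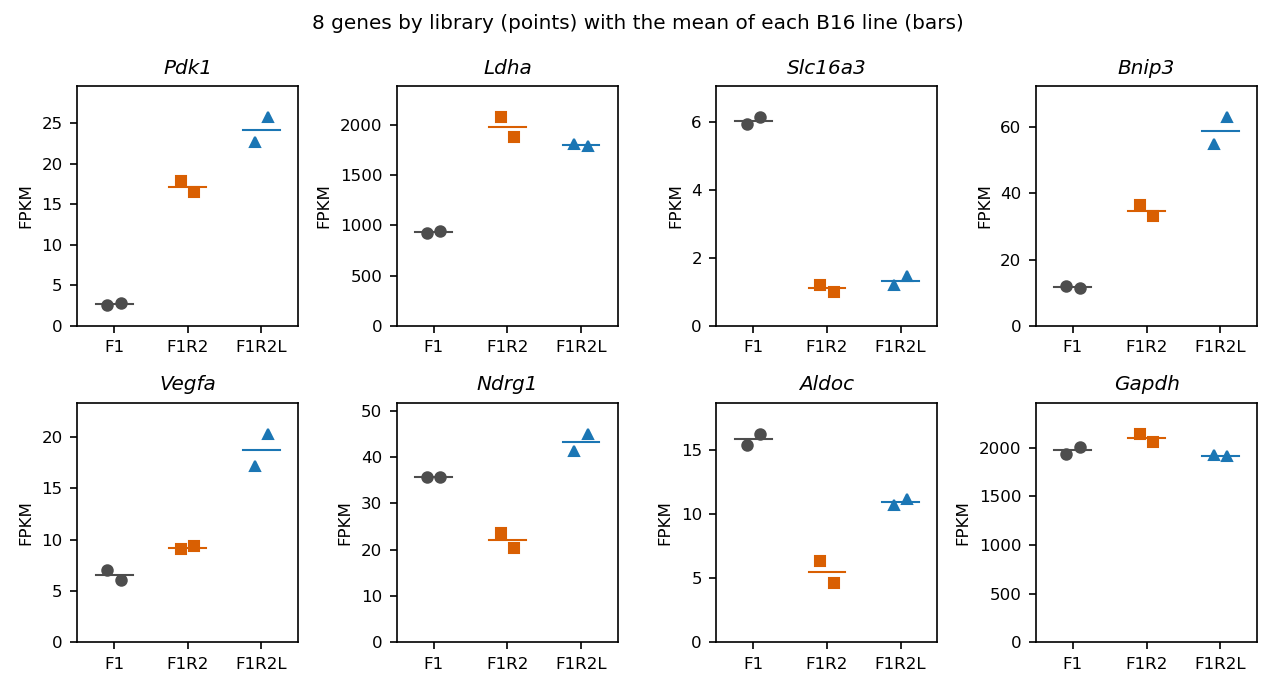
FPKM of 8 genes by library (points) with the mean of each line (bars), on linear axes that start at 0. Pdk1, Bnip3 and Vegfa are highest in B16-F1R2L, Slc16a3 drops from about 6 FPKM to near 1 in both metastatic lines, Ndrg1 and Aldoc are lowest in B16-F1R2, and Gapdh lies between 1915 and 2144 FPKM throughout.

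Adm and Ankrd37 rose in both metastatic lines. Adm, for the vasodilator peptide adrenomedullin, measured 2.04 and 2.38 FPKM in B16-F1, 7.78 and 8.22 in B16-F1R2, with 6.47 and 6.93 in B16-F1R2L. Ankrd37, a small ankyrin repeat protein used as a hypoxia marker, measured 0.701 and 0.730 FPKM in B16-F1, 2.69 and 1.99 in B16-F1R2, against 2.35 and 2.74 in B16-F1R2L. Both genes were low in B16-F1 and did not overlap with it, with log2 differences in B16-F1R2 of 1.81 ± 0.10 (SE; limma, adjusted p = 3.1e-05) for Adm and 1.57 ± 0.18 (adjusted p = 0.000609) for Ankrd37. In B16-F1R2L they were 1.56 and 1.70 (adjusted p = 5.29e-05 and 0.000438).

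The collagen prolyl 4-hydroxylase subunits P4ha1 and P4ha2, which are needed for stable collagen, were also higher. P4ha1 measured 12.5 and 11.1 FPKM in B16-F1, 18.9 and 17.1 in B16-F1R2, with 18.7 and 18.9 in B16-F1R2L. P4ha2 measured 7.55 and 7.09 FPKM in B16-F1, 16.4 and 13.8 in B16-F1R2, with 16.6 and 15.2 in B16-F1R2L. The log2 differences in B16-F1R2 were 0.60 (limma, adjusted p = 0.00102) and 1.03 (adjusted p = 0.000258), and the metastatic lines overlapped for both genes. Higd1a, for a small mitochondrial protein, measured 31.2 and 30.3 FPKM in B16-F1, 47.9 and 45.3 in B16-F1R2, against 49.5 and 53.3 in B16-F1R2L, with a log2 difference of 0.60 (adjusted p = 0.000241) in B16-F1R2.

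The carbonic anhydrases, which regulate pH at the cell surface, did not follow the other targets. Car9, one of the most used markers of hypoxia in tumors, measured 2.11 and 1.61 FPKM in B16-F1, 2.00 and 1.58 in B16-F1R2, with 1.81 and 2.65 in B16-F1R2L, so that all lines overlapped. Its log2 differences from B16-F1 were -0.05 ± 0.23 (SE; limma, adjusted p = 0.873) and 0.24 ± 0.23 (adjusted p = 0.415), and a difference of the size of this spread was not detectable. Car12 stayed between 0.119 and 0.323 FPKM and was left untested.

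Reads of glycolysis genes can come from more than 1 place, since the mouse genome holds many processed copies of them and the authors kept reads with up to 20 positions. In NCBIM37, 92.9% of the 50-base stretches of Pgk1 transcripts occurred exactly at another position, as did 91.9% for Pgam1, 78.7% for Gapdh, 61.7% for Bnip3, 49.5% for Eno1, 40.6% for Pkm and between 10.3% and 32.5% for Bnip3l, Gpi1, Ldhb, Ldha, Tpi1, Higd1a and Aldoa. For Gapdh, 66.2% of stretches occurred at 20 or more other positions, so reads from them may have been dropped. The levels of these 13 genes are therefore uncertain, those of Pgk1, Pgam1 and Gapdh most. The other 25 genes had less than 5% of such stretches, a limit set after the values were seen. Of the 23 of these that were tested, 16 were higher and 4 lower in B16-F1R2, 19 higher and 2 lower in B16-F1R2L, and 6 higher and none lower in B16-F1R2L against B16-F1R2. The shares of all tested genes in the same order were 28.2% and 27.2%, 29.5% and 27.1%, and 12.1% and 10.5%. The sum over the 7 glycolysis enzymes among them was 1.66 times that of B16-F1 in B16-F1R2 and 1.82 times in B16-F1R2L, larger than the ratios of 1.32 and 1.21 over all 15 enzymes. These 7 genes had a mean sum of 139 FPKM in B16-F1, against 9109 FPKM for all 15. Their ratio therefore does not stand for the sum of the pathway.

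**Figure D5:**
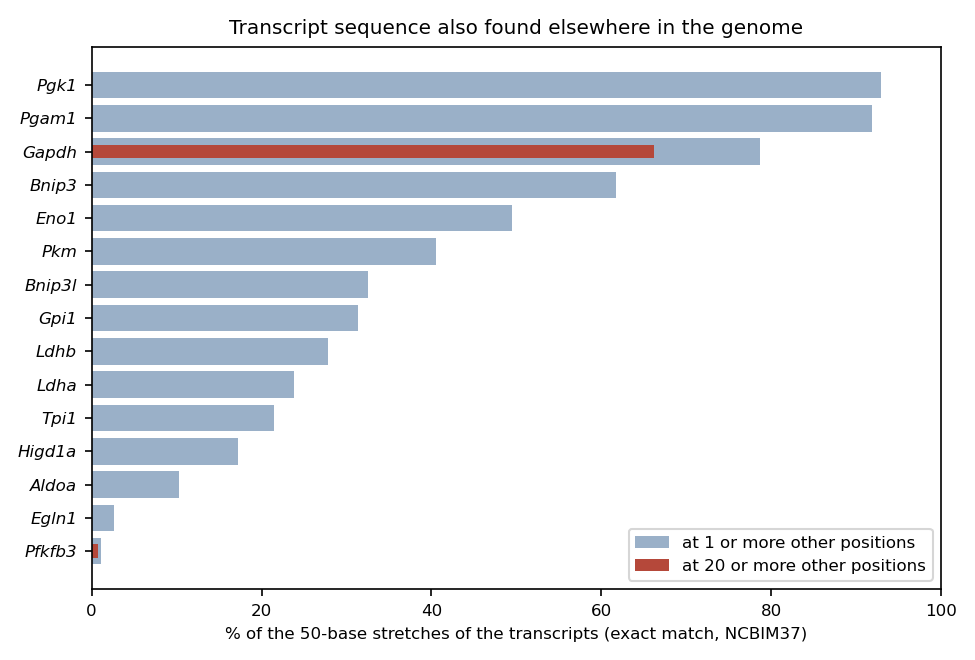
Percent of the 50-base stretches of each gene's transcripts that occur exactly at 1 or more other positions of the genome (wide bars) or at 20 or more (narrow bars), for the 15 genes of the list with the highest shares. Pgk1 and Pgam1 exceed 90%, and only Gapdh has a large share, 66.2%, at 20 or more positions.

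Further genes of the same pathways, which were not on the list, were described for comparison. Of 130 such genes tested, 48 were higher (36.9%) and 36 lower (27.7%) in B16-F1R2, against 28.2% and 27.2% of all tested genes, with a median log2 difference of 0.030. In B16-F1R2L 55 were higher (42.3%) and 31 lower (23.8%), against 29.5% and 27.1%. Other isozymes and branch enzymes of glycolysis gave 14 higher (40.0%) and 9 lower (25.7%) of 35 in B16-F1R2. Among them Fbp2, for the muscle form of the gluconeogenic fructose bisphosphatase, was listed at 0 in both B16-F1 libraries and measured 7.63 and 7.86 FPKM in B16-F1R2, with 9.80 and 9.04 in B16-F1R2L. Pygm, for muscle glycogen phosphorylase, was listed at 0 and 0.0636 FPKM in B16-F1 and measured between 6.97 and 8.16 FPKM in the metastatic lines. Slc2a4, for the insulin-responsive transporter GLUT4, measured 0.346 and 0.297 FPKM in B16-F1, 6.95 and 7.74 in B16-F1R2, with 6.80 and 6.62 in B16-F1R2L. All 3 genes are known from muscle and stayed below 1 FPKM in B16-F1. Slc2a6, for a transporter of lysosomes, was lower, with 20.0 and 17.7 FPKM in B16-F1, 4.96 and 3.94 in B16-F1R2, against 5.58 and 5.33 in B16-F1R2L.

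Genes that handle pyruvate and lactate gave 8 higher (42.1%) and 2 lower (10.5%) of 19 in B16-F1R2, against 28.2% and 27.2% of all tested genes, with a median log2 difference of 0.13. The alanine transaminases, which exchange pyruvate and alanine, differed from each other. Gpt, the cytosolic form, measured 4.54 and 5.71 FPKM in B16-F1, 25.6 and 24.7 in B16-F1R2, with 27.7 and 27.5 in B16-F1R2L. Gpt2, the mitochondrial form, measured 12.0 and 11.6 FPKM in B16-F1, 8.61 and 8.23 in B16-F1R2, with 24.1 and 27.6 in B16-F1R2L. Gpt was high in both metastatic lines (2.28 and 2.41; limma, adjusted p = 1.33e-05 and 1.02e-05), whereas Gpt2 was lowest in B16-F1R2 (-0.49, adjusted p = 0.00237) and highest in B16-F1R2L (1.12, adjusted p = 7.12e-05). Pdhb, for a subunit of pyruvate dehydrogenase, was higher in B16-F1R2 by 0.43 (adjusted p = 0.000599), as was Lacc1, for a laccase domain enzyme, by 0.95 (adjusted p = 0.000216).

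Genes of the HIF subunits and their regulators gave 4 higher (17.4%) and 11 lower (47.8%) of 23 in B16-F1R2, against 28.2% and 27.2% of all tested genes, with a median log2 difference of -0.16. Vhl, for the ubiquitin ligase subunit that recognizes hydroxylated HIF, measured 19.5 and 20.2 FPKM in B16-F1, 14.3 and 12.9 in B16-F1R2, against 15.2 and 15.7 in B16-F1R2L, a log2 difference of -0.55 (limma, adjusted p = 0.000707) in B16-F1R2. Tceb2, for elongin B of the same ligase, was lower as well (-0.48, adjusted p = 0.00119), as was Siah2, for a ligase that targets prolyl hydroxylases (-0.68, adjusted p = 0.000883). Arnt, the constant subunit of HIF, measured 17.1 and 17.4 FPKM in B16-F1, 15.3 and 14.9 in B16-F1R2, with 17.5 and 18.1 in B16-F1R2L. Epas1, for HIF-2 alpha, stayed between 1.39 and 2.34 FPKM. The lower values of Arnt (-0.19, adjusted p = 0.0209) and Epas1 (-0.50, adjusted p = 0.0376) in B16-F1R2 lost their call when any 1 of the B16-F1R2 libraries or B16-F1 replicate 2 was left out (adjusted p of up to 0.11 and 0.197), that of Arnt also without B16-F1 replicate 1 and that of Epas1 also with no filter on low values and with a replicate block. Hsp90aa1, the chaperone that holds HIF-1 alpha, was higher by 1.17 (adjusted p = 1.28e-05), with 472 and 454 FPKM in B16-F1 and between 934 and 1068 FPKM in the metastatic lines.

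Of 54 other genes reported as HIF targets, 23 were higher (42.6%) and 14 lower (25.9%) in B16-F1R2, against 28.2% and 27.2% of all tested genes, with a median log2 difference of 0.077. S100a4, for a calcium-binding protein linked to metastasis, measured 7.97 and 8.89 FPKM in B16-F1, 105 and 97.4 in B16-F1R2, with 62.9 and 76.3 in B16-F1R2L. Met, for the receptor of hepatocyte growth factor, measured 146 and 147 FPKM in B16-F1, 34.5 and 34.7 in B16-F1R2, against 43.0 and 45.8 in B16-F1R2L. S100a4 was thus higher in B16-F1R2 by 3.57 (limma, adjusted p = 2.43e-06) and Met lower (-2.08, adjusted p = 9.44e-07). Gadd45b, for a stress response protein, was higher by 2.78 (adjusted p = 1.99e-05) and Isg20, for an exonuclease, by 2.99 ± 0.50 (SE; adjusted p = 0.00284), the latter with 1.18 and 0.290 FPKM in the B16-F1 libraries. The value for Isg20 was 3.85 without B16-F1 replicate 1, 2.13 without replicate 2 and 1.96 with a pseudocount of 1.

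The spread between the libraries of a line was small against most of these differences. Between replicates, the 36 tested genes differed by a median of 0.049 (B16-F1), 0.10 (B16-F1R2) and 0.090 (B16-F1R2L) on the log2 scale, against 0.067, 0.085 and 0.095 for all tested genes. In B16-F1R2, 29 of the 36 genes were higher in replicate 1 than in replicate 2, where 13 and 14 were so in the other lines. This count was not made over all tested genes. Without B16-F1R2 replicate 1, 26 genes were higher and 3 lower than in B16-F1, and without replicate 2 the counts were 28 and 3. For B16-F1R2L against B16-F1R2, the number of higher genes fell from 8 to 4 without either B16-F1R2 library, and to 3 without B16-F1R2L replicate 2. The higher calls over all tested genes fell in the same fits from 1378 to 317 without B16-F1R2 replicate 1, 654 without replicate 2 and 362 without B16-F1R2L replicate 2.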

How the data were processed

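Polyadenylated RNA of 3 lines, 2 libraries each, was sequenced by the authors in single-end stranded reads of 50 bases. Per the submitters' processing notes, FastQC 0.10.1, TopHat2 2.0.10, Bowtie 1.0.0, SAMtools 0.1.1.9, Cuffnorm and DESeq2 were used on mm9; alignment allowed 2 mismatches and up to 20 positions per read. The gene annotation and the scaling used are not given in the sources used here. The authors deposited FPKM per gene and library in 1 table, without counts, so no count test and no counting interval was used.

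From these values log2(FPKM + 0.1) was tested with limma 3.58.1 under R 4.3.3, by lmFit and contrasts.fit followed by a trended eBayes, over the 11379 genes that reached 1 FPKM in 2 or more libraries, with all 6 libraries in 1 fit and no block for the replicate number; values were adjusted by Benjamini-Hochberg with a threshold of 0.05. The step was tested on simulated data. For genes of low level, differences on this scale are smaller than those of the FPKM themselves. Shared stretches were counted in the NCBIM37 assembly, which mm9 names, with Python 3.11.15 and numba 0.67.0. Promoters came from RefSeq.

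All genes on the list were named. Of each further pathway list, the 4 genes with the largest difference between B16-F1R2 and B16-F1 past the threshold, with a mean of 5 FPKM in a line, and Epas1, Arnt and Vhl were named. The list and the gene lists were chosen with earlier results of these data known. Alternatives were other pseudocounts, filters and scalings, an untrended eBayes, a fit on 4 libraries, a replicate block, a minimum log2 difference of 1, and fits that lacked 1 library. The proteomic and animal data were not analysed here.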

Additional observations from a re-analysis of the deposited data

Results flagged for a closer look

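Ndrg1 and Gpt2 drew attention because the metastatic lines differed from B16-F1 in opposite directions, each past the threshold. Ndrg1 was lower in B16-F1R2 (-0.70 on the log2 scale) and higher in B16-F1R2L (0.27), and the difference between these lines, tested directly, was 0.97 (limma, adjusted p = 0.00204), with both B16-F1R2L libraries above both of B16-F1R2. Gpt2 was lower in B16-F1R2 (-0.49) and higher in B16-F1R2L (1.12), with a difference between the lines of 1.60 (adjusted p = 0.000576). The call of Ndrg1 in B16-F1R2L against B16-F1 was lost without either B16-F1 library, without B16-F1R2L replicate 2 and with eBayes without a trend (adjusted p of up to 0.122). The difference between the metastatic lines ranged from 0.87 to 1.08 for Ndrg1 and from 1.51 to 1.72 for Gpt2 over the alternatives tried. Groups of 2 libraries are too small for a test of outlying libraries.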

How the results depend on the processing

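Of the 31 genes of the list called in B16-F1R2 against B16-F1, 28 kept their call under each of the 16 alternatives without a minimum difference in which they were tested, as did 28 of 32 in B16-F1R2L against B16-F1 and 3 of 11 between the metastatic lines, and no called gene changed sign. Ankrd37, 1 of those 28 in both comparisons, was too low to be tested with the minimum of 5 FPKM. The lower calls between the metastatic lines are the least stable: their 3 became 0 with no filter on low values, after rescaling to a sum of 1000000, with eBayes without a trend and with only the 4 libraries compared. Lower calls over all tested genes fell as well, from 1190 to 743, 489, 650 and 822 in the same order. The genes tested in these settings numbered 16483, 11379, 11379 and 11187. Requiring a log2 difference of at least 1 left 7 higher and 2 lower genes for B16-F1R2, 8 and 1 for B16-F1R2L, and 1 and 0 between these lines, against 7.20%, 2.88%, 8.41%, 2.28%, 1.02% and 0.211% of all tested genes in the same order. Leaving out any 1 library lowered the number of calls in the last comparison, for the list as for all tested genes. Over the alternatives, the log2 difference between the metastatic lines ran from 0.66 to 0.86 for Bnip3, which was higher in B16-F1R2L. For Eno1, which was lower, it ran from -0.29 to -0.056.

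Same-numbered libraries did not deviate together (correlations of 0.052, -0.10 and 0.079). A line of 2 libraries gives a single deviation per gene, so these values cannot decide whether same-numbered libraries were prepared together. With a replicate block, 27 higher and 3 lower genes were called against B16-F1 for B16-F1R2, 29 and 3 for B16-F1R2L, and 8 and 2 between them. Over all 11379 tested genes, the same fit gave 3141 higher and 3040 lower, 3299 and 3031, and 1217 and 1104 in this order.

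The summed level of the glycolysis enzymes relative to B16-F1 was 1.39 in B16-F1R2 and 1.28 in B16-F1R2L without Gapdh. It was 1.66 and 1.82 over the 7 genes with little shared sequence, whose mean sum in B16-F1 was 139 of 9109 FPKM. After rescaling it was 1.30 in B16-F1R2L. The first 2 of these choices were made after seeing the data.

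Differences that changed sign had not passed the test. Between the metastatic lines, rescaling gave 0.016 for Aldoa, 0.012 for Pgk1, 0.021 for Pkm, 0.017 for Slc16a1, 0.0013 for Tpi1 and 0.033 for Lacc1. Quantile normalization gave there 0.089 for Aldoa, -0.047 for Ankrd37, -0.0095 for Eno2, -0.15 for Epas1, 0.035 for Gapdh, 0.012 for Gpi1, 0.050 for Ldha, -0.20 for Pfkfb4, 0.11 for Pgk1, 0.075 for Pkm and 0.083 for Tpi1. Against B16-F1, Gapdh in B16-F1R2L became 0.062 after rescaling and 0.094 after quantile normalization, which also gave 0.011 for Ldhb in B16-F1R2 and -0.24 for Car9 in B16-F1R2L. With libraries left out, differences from B16-F1 ran from -0.24 to 0.14 for Car9 and -0.11 to 0.017 for Ldhb in B16-F1R2, and from -0.026 to 0.50 for Car9 in B16-F1R2L. Between the metastatic lines they ran from -0.079 to 0.33 for Ankrd37, -0.093 to 0.34 for Eno2, -0.014 to 0.19 for Epas1, -0.056 to 0.27 for Isg20, -0.17 to 0.018 for Lacc1, -0.0032 to 0.14 for P4ha1, -0.044 to 0.20 for P4ha2, -0.013 to 0.075 for Pdhb and -0.015 to 0.088 for Pfkfb4. The cause of these changes was not tested. Depth limits the genes near 1 FPKM, such as Car9, Ankrd37 and Slc16a3.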
